A study of Mus musculus with 4 samples.

Results

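The genes of the coactivators Yap and Taz, their DNA-binding partners and nearby regulators were described in 4 mouse lung tumours. The 10 genes were Yap1, Wwtr1 (which encodes Taz), Tead1, Tead2, Tead3, Tead4, Lats1, Lats2, Amotl2 and Ankrd1. They were chosen by name, as the entries of the count table with these symbols, and all 10 were found among 39017 genes. All 10 had a mean of at least 1 CPM (read count scaled to library size, in counts per 1000000), the filter that 14225 genes passed.

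The 4 tumours formed 1 group of controls from male KP mice on a C57BL/6 background, a model of lung adenocarcinoma that carries floxed alleles of Trp53 on both chromosomes. Cre recombinase starts the tumours and removes Trp53 in the infected lung cells. Each mouse received 1500 units of a lentivirus, lenti.PGK-Cre, in which the PGK promoter drives Cre without restriction to 1 lung cell type. Tumours were taken 22 weeks and 5 days after initiation, cut out by hand and dissociated, and RNA of all their cells was sequenced. The genotype label reads heterozygous fl/wt without naming the gene, while the column names of the deposited log2 table mark the same tumours as WT. The paper describes its control mice as either wild type for Slc2a1 (or Slc2a3) or heterozygous for a floxed Slc2a1 allele. It does not say which holds for these tumours. The age of the mice was not given, nor was it said whether the tumours came from separate mice. Every spread below is therefore a spread between these 4 samples, and every p-value covers these 4 samples alone. The tumours are numbered 1 to 4 as in the labels.

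Yap and Taz are transcriptional coactivators without a DNA-binding domain of their own. They act in the nucleus mainly through the Tead transcription factors, and they are held in the cytoplasm or degraded once the kinases Lats1 and Lats2 of the Hippo pathway have phosphorylated them. In the lung they are known for their part in alveolar repair and in the differentiation of type 1 from type 2 alveolar cells, and Ankrd1, Amotl2 and Lats2 are widely used as target genes that they switch on. Transcript counts show neither phosphorylation nor the place of the proteins in the cell.

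The 4 Tead genes are paralogues whose reads could be confused in counting, so the coding stretch in which the 4 are most alike is shown first. Over their whole coding sequences, the pairs were between 66.2% and 71.4% identical. The window shown is 85 bases long, the length of 1 sequencing read, and lies within 1 coding exon of each gene (GENCODE M21, GRCm38), in the part that encodes the DNA-binding TEA domain. Each sequence is written 5′ to 3′ on the strand of its gene, with capitals at the 24 positions where the 4 genes are not all the same. It lies at chr7:112759525-112759609 on the plus strand in Tead1, at chr7:45217336-45217420 on the plus strand in Tead2, at chr17:28341379-28341463 on the minus strand in Tead3 and at chr6:128270898-128270982 on the minus strand in Tead4.
Tead1: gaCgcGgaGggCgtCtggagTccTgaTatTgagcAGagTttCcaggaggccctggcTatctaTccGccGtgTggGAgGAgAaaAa
Tead2: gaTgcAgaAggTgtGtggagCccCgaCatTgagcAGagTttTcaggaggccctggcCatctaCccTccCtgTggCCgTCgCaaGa
Tead3: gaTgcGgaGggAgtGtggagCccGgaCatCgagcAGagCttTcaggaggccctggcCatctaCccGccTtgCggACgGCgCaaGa
Tead4: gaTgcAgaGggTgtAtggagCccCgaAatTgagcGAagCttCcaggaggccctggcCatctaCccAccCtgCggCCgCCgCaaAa

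Here Tead1 differed from Tead2 at 19 positions, from Tead3 at 18 and from Tead4 at 20. For single pairs, the most alike window of this length held at least 7 differences, the value for Tead2 with Tead3 and for Tead3 with Tead4. No annotated transcript of another gene shared 80 bases or more at 97% identity with any Tead gene, Wwtr1, Lats1 or Ankrd1. Amotl2 shared such a stretch with 54 other genes. Yap1 shared 116 exonic bases with Gm20416 on the opposite strand, a gene with 0 counts in all 4 tumours, and Tead2 shared 13 with Cd37 on the opposite strand. Lats2 shared 2955 exonic bases with Gm49361 on the same strand, a gene model that the count table does not list, so its counts may hold reads of either model. The strand setting of the counting was not stated.

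Tead proteins bind the core sequence GGAATG. It was searched, together with its reverse complement CATTCC, in windows from 250 bases before to 50 after each RefSeq start site (GRCm38.p6). These letters were present in 6 of the 8 genes of the set that have a window, 75.0%, and in 4481 of 27025 genes in the table, 16.6%. The 6 were Yap1, Wwtr1, Tead3, Lats2, Amotl2 and Ankrd1. The windows of Tead2 and Lats1 did not hold them, and Tead1 and Tead4 had no entry. In the list of 18 known targets given below, 3 of the 11 genes with a window held the motif, 27.3%. A match of letters is a description and not evidence of a bound site.

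The stretches of Yap1, Wwtr1 and Tead3 are shown as 60 bases on the strand of the gene, 5′ to 3′, with the motif in capitals, because they lie before the first annotated exon. The motif began at position -141 from the start of Yap1 (shown: chr9:8004705-8004764, minus strand). In Wwtr1 it began at position -136 from 1 listed start and -170 from another (shown: chr3:57576014-57576073, minus strand). In Tead3 it began at position -182 from the most distal listed start (shown: chr17:28350955-28351014, minus strand).
Yap1: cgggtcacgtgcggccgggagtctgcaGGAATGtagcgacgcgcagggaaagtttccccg
Wwtr1: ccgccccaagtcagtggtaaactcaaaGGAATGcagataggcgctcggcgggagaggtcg
Tead3: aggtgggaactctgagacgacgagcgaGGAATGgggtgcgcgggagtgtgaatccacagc

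A second Tead3 window held 3 further matches, at positions -123, -114 and 2. Ankrd1 held 2, at -210 and -123, and Lats2 and Amotl2 held 1 each, at 4 and -65. The stretches around these overlap annotated exons of at least 1 GENCODE transcript of the gene and are not printed.

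The libraries held 8151613 to 8799007 counts, and 3 counts, the upper limit that a count of 0 allows, corresponded to 0.33 to 0.37 CPM. CPM was taken over the effective library size, and a level per kb is CPM divided by the length of all annotated exons of the gene. Comparisons of level between genes rest on this length. Several of them turned when the longest transcript was taken instead, as given below. The epithelial and alveolar type 2 markers that define lung adenocarcinoma of this kind were present in every tumour. All 4 general epithelial markers were measured, with summed CPM of 2490 to 3970, and all 8 type 2 markers, with summed CPM of 32900 to 60900. Markers of other cells were also present, including all 6 pan-leukocyte markers with summed CPM of 526 to 832, and in such bulk samples fewer cells of a type and less RNA per cell cannot be told apart. Squamous markers summed to 29.2 CPM in tumour 1 and to 0.929 to 2.97 CPM in the others. Most of the sum in tumour 1 came from Krt14, at 21.0 CPM, and Krt6a, at 7.7 CPM. The other squamous markers did not share this, with 4, 1, 2 and 2 counts for Krt5 and 0, 1, 3 and 9 for Trp63. Heart and skeletal muscle markers summed to 5.61 to 7.20 CPM, with Myl7, Nppa and Acta1 at or under 3 counts in every tumour.

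Both coactivators were well expressed in all tumours. Yap1 (ENSMUSG00000053110, chr9:7931999-8004596, minus strand) was at 117, 157, 107 and 149 CPM in tumours 1 to 4, a mean of 133 ± 24.5 (SD, n = 4). It was higher in tumours 2 and 4 than in tumours 1 and 3, with the highest value 1.47 times the lowest. Wwtr1 (ENSMUSG00000027803, chr3:57455649-57575910, minus strand) was at 131, 78.9, 79.5 and 108 CPM, a mean of 99.3 ± 25.2 (SD, n = 4). It was highest in tumour 1, low in tumours 2 and 3, and spread over 1.66-fold. The ratio of Wwtr1 to Yap1 in CPM was 1.13, 0.501, 0.743 and 0.721, so tumour 1 was the only tumour with more Wwtr1 than Yap1 counts, and tumour 2 stood at the other end.

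Which coactivator transcript was the more abundant per length depended on the length taken. Per kb of all annotated exons, Wwtr1 had a mean of 20.8 ± 5.27 CPM and Yap1 one of 14.3 ± 2.65 (SD, n = 4). The difference, Yap1 minus Wwtr1, was -1.13, 0.04, -0.53 and -0.48 on the log2 scale, with a mean of -0.52 ± 0.48 (SD, n = 4; p = 0.25, exact permutation test by sign flips, two-sided). With the longest single transcript in place of all exons, the mean difference was 0.26, and without any length 0.43, the opposite direction. The sum of the 2 coactivators was 40.1, 33.5, 28.2 and 38.6 CPM per kb, a range of 1.42-fold.

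**Figure D1:**
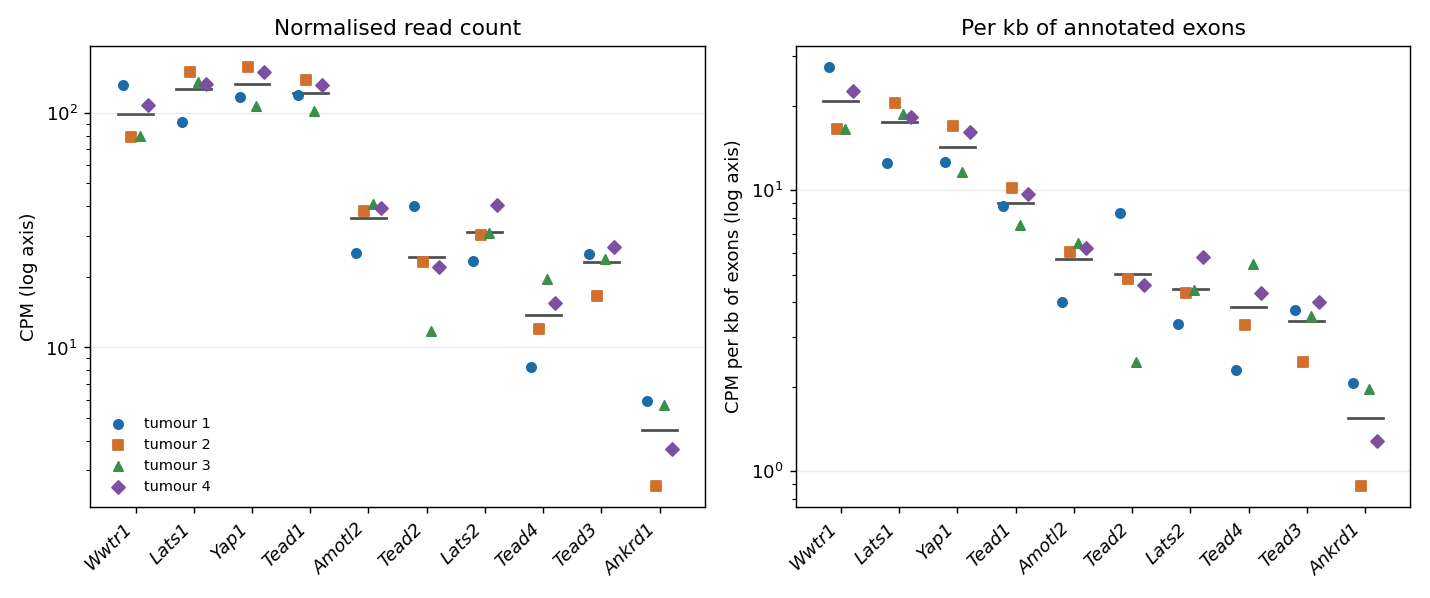
Level of each gene in the 4 tumours as CPM (left) and as CPM per kb of annotated exons (right), both on log axes, with 1 symbol per tumour and a bar at the mean. Wwtr1, Lats1 and Yap1 lie highest per kb and Ankrd1 lowest, and Tead2 is spread furthest, from 2.45 to 8.34 CPM per kb.

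Lats1 and Lats2, the kinases that inhibit both coactivators, differed in level in every tumour. Lats1 (ENSMUSG00000040021, chr10:7681214-7716460, plus strand) was at 91.0, 149, 136 and 133 CPM, a mean of 127 ± 25.3 (SD, n = 4). Tumour 1 was low and the other 3 lay close together, so that the 1.64-fold range was 1.12-fold without tumour 1. Lats2 (ENSMUSG00000021959, chr14:57689662-57758388, minus strand), which is also a target gene, was at 23.3, 30.1, 30.9 and 40.4 CPM, a mean of 31.2 ± 7.04 (SD, n = 4), lowest in tumour 1 and highest in tumour 4. Per kb, Lats1 exceeded Lats2 in 4 of 4 tumours, by 1.97 ± 0.25 on the log2 scale or 3.91-fold (p = 0.125, same exact permutation test). This is the smallest p that 4 tumours allow, so no pair in these data could pass 0.05.

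Of the 4 Tead transcripts, Tead1 was the most abundant in every tumour. Tead1 (ENSMUSG00000055320, chr7:112679318-112906807, plus strand) was at 119, 138, 102 and 131 CPM, a mean of 122 ± 15.8 (SD, n = 4), and its 1.35-fold range was the narrowest of the 10 genes. Tead2 (ENSMUSG00000030796, chr7:45215753-45233644, plus strand) was at 39.9, 23.2, 11.7 and 22.0 CPM, a mean of 24.2 ± 11.7 (SD, n = 4). Tumour 1 was high and tumour 3 low, and the 3.41-fold range was the widest of the set. It was 1.98-fold without tumour 1 and 1.82-fold without tumour 3.

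Tead3 (ENSMUSG00000002249, chr17:28331671-28350817, minus strand) was at 25.1, 16.5, 23.9 and 26.9 CPM, a mean of 23.1 ± 4.57 (SD, n = 4). Tumour 2 was low, and without it the range fell from 1.63-fold to 1.12-fold. Tead4 (ENSMUSG00000030353, chr6:128224288-128300823, minus strand) was at 8.25, 12, 19.6 and 15.5 CPM, a mean of 13.8 ± 4.86 (SD, n = 4). It was lowest in tumour 1, where Tead2 was highest, and highest in tumour 3, where Tead2 was lowest.

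The makeup of the Tead transcripts differed between tumours. Summed over the 4 genes, the level was 23.1, 20.8, 19.0 and 22.6 CPM per kb, a range of 1.22-fold. The range of a sum cannot exceed the widest range among its parts, so a narrower range for the sum is partly built in. Tead1 made up 37.9%, 48.8%, 39.6% and 42.9% of this sum, a mean of 42.3% ± 4.83 (SD, n = 4). The share of Tead2 was 36.1%, 23.3%, 12.9% and 20.4%, so that it nearly equalled Tead1 in tumour 1 and was the smallest share in tumour 3. The share of Tead4 ran the other way, with 9.91%, 16%, 28.7% and 19.0%. Tead3 held 11.8% to 18.8%. The ratio of Tead2 to Tead4 per kb was 3.64, 1.46, 0.449 and 1.07, a range of 8.10-fold that was 3.25-fold without tumour 1 and 3.40-fold without tumour 3. These genes were the pair of the set least alike in pattern, as given below, so this range is an extreme of the set.

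**Figure D2:**
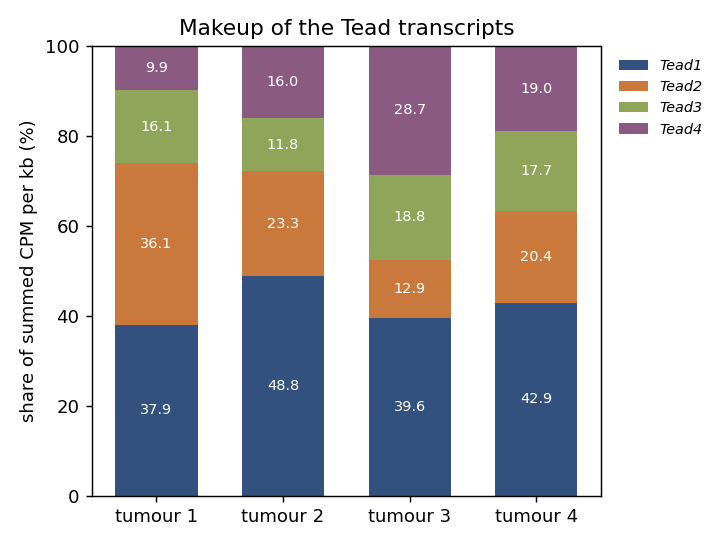
Share of each Tead gene in the summed CPM per kb of Tead1 to Tead4, in percent, as 1 stacked bar per tumour. The Tead1 part is the largest in each tumour (37.9% to 48.8%), the Tead2 part shrinks from 36.1% in tumour 1 to 12.9% in tumour 3, and the Tead4 part is 9.91% and 28.7% in those tumours.

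Within tumours, Tead1 exceeded each of the other 3 paralogues in 4 of 4 tumours. The mean difference of log2 CPM per kb was 0.95 ± 0.64 against Tead2, 1.4 ± 0.43 against Tead3 and 1.29 ± 0.63 against Tead4 (SD, n = 4, exact permutation p = 0.125 for each). In tumour 1 the difference from Tead2 was only 0.07. Tead2, Tead3 and Tead4 could not be ordered among themselves. Tead2 minus Tead3 was 0.45 ± 0.78 with 3 of 4 tumours above 0, Tead2 minus Tead4 was 0.33 ± 1.24 with 3 of 4, and Tead3 minus Tead4 was -0.11 ± 0.58 with 1 of 4 (SD, n = 4, exact permutation p = 0.375, 0.625 and 0.75). The direction of Tead2 against Tead4 turned without tumour 1, to -0.17, and that of Tead3 against Tead4 turned without tumour 3, to 0.05, as well as with other lengths.

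**Figure D3:**
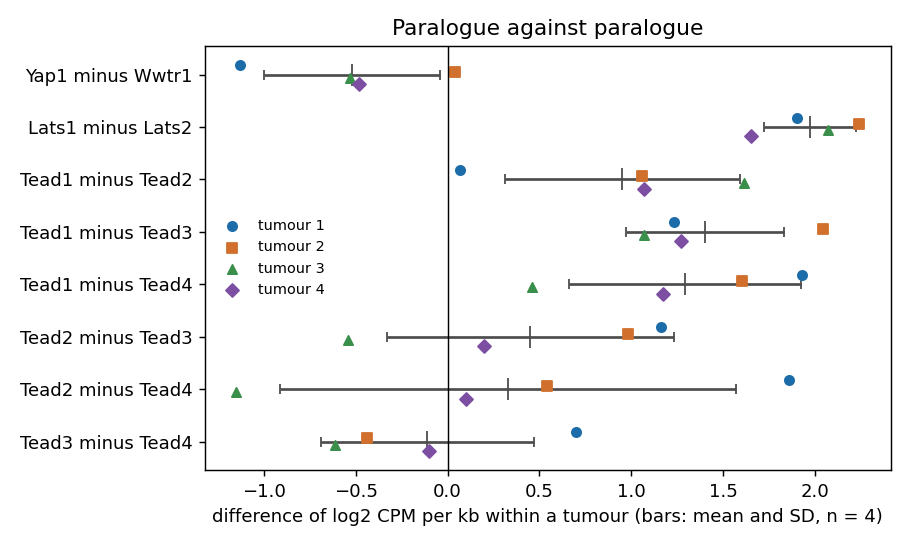
Difference of log2 CPM per kb between 2 paralogues within each tumour (symbols), with the mean and SD over 4 tumours (bars), for 8 pairs. All 4 symbols lie right of 0 for Lats1 against Lats2 and for Tead1 against each other Tead gene, whereas the Tead2 against Tead4 symbols run from -1.15 in tumour 3 to 1.86 in tumour 1.

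Amotl2 and Ankrd1 were the remaining target genes of the set. Amotl2 (ENSMUSG00000032531, chr9:102716672-102733418, plus strand) encodes a motin that binds Yap at cell junctions. It was at 25.3, 38.0, 40.8 and 39.2 CPM, a mean of 35.8 ± 7.12 (SD, n = 4). Tumour 1 was low and stood apart from the other 3, which spread over only 1.08-fold. Ankrd1 (ENSMUSG00000024803, chr19:36111961-36120099, minus strand) encodes an ankyrin repeat protein first known from heart muscle, and had 54, 22, 46 and 31 counts. These corresponded to 5.94, 2.56, 5.68 and 3.69 CPM, with exact 95% Poisson intervals, which cover counting error only, of 4.46 to 7.75, 1.60 to 3.87, 4.16 to 7.57 and 2.51 to 5.23. Tumours 1 and 3 were thus above tumour 2 beyond counting error, while the interval of tumour 4 overlapped those of all others.

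Ordered by mean level per kb, the genes ran Wwtr1, Lats1, Yap1, Tead1, Amotl2, Tead2, Lats2, Tead4, Tead3 and Ankrd1. Wwtr1 at 20.8 CPM per kb was in the top 19.0% of 14100 genes with an annotated length, Yap1 in the top 27.5%, and Ankrd1 at 1.55 ± 0.562 (SD, n = 4) in the top 82.5%. Among the 9 pairs of neighbours in this order, 3 had the same direction in all 4 tumours. These were Yap1 above Tead1, by 0.66 ± 0.11 on the log2 scale, Tead1 above Amotl2, by 0.68 ± 0.38, and Tead3 above Ankrd1, by 1.19 ± 0.40 (SD, n = 4, exact permutation p = 0.125 for each). The other 6 neighbours did not keep 1 direction. Their mean differences lay within 1 SD of 0, as for Tead2 over Lats2 (0.08 ± 0.93), Lats1 over Yap1 (0.28 ± 0.30) and Lats2 over Tead4 (0.26 ± 0.38, SD, n = 4). In all, 16 different pairs were compared within tumours, and 7 had the same direction in 4 of 4.

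The 10 genes were then set against counting noise. In all 10 the 4 counts differed by more than sampling allows (chi-square test against Poisson expectations, Benjamini-Hochberg adjusted over 14225 genes, adjusted p from 7.14e-35 for Wwtr1 to 0.00258 for Ankrd1). This was also true of 10905 of the 14225 genes, 76.7%, so that variation beyond counting noise was the rule in these tumours. Leaving out 1 tumour ended the call for 3 genes, namely Amotl2 without tumour 1 (adjusted p = 0.684) and Tead3 and Ankrd1 without tumour 2 (adjusted p = 0.533 and 0.104). The SD of log2 CPM had a median of 0.32 over the 10 genes and of 0.29 over all genes tested, and 8 of the 10 lay above the latter. It was largest for Tead2 with 0.72, in the top 11.8% of all genes, followed by Ankrd1 with 0.57 and Tead4 with 0.53, and was smallest for Yap1 with 0.27 and Tead1 with 0.19.

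The biological coefficient of variation, edgeR's estimate of the spread left after counting noise, was 39.0% for Tead2, against 29.0% for genes of like level. In Wwtr1 it was 23.7% against 22.8%, in Tead4 it equalled the value for like genes at 34.6%, and in the other 7 it was below that value. The edgeR estimate is drawn towards the value for genes of like level, so nearness to that value is partly built in. DESeq2's estimate, made gene by gene, was 12.2% for Tead1, against 18.5% by edgeR, and 47.4% for Tead2. One gene of the 10, Amotl2, had a tumour apart from the rest by Dixon's ratio of the gap to the range, against 834 of 14225 genes, 5.86%.

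**Figure D4:**
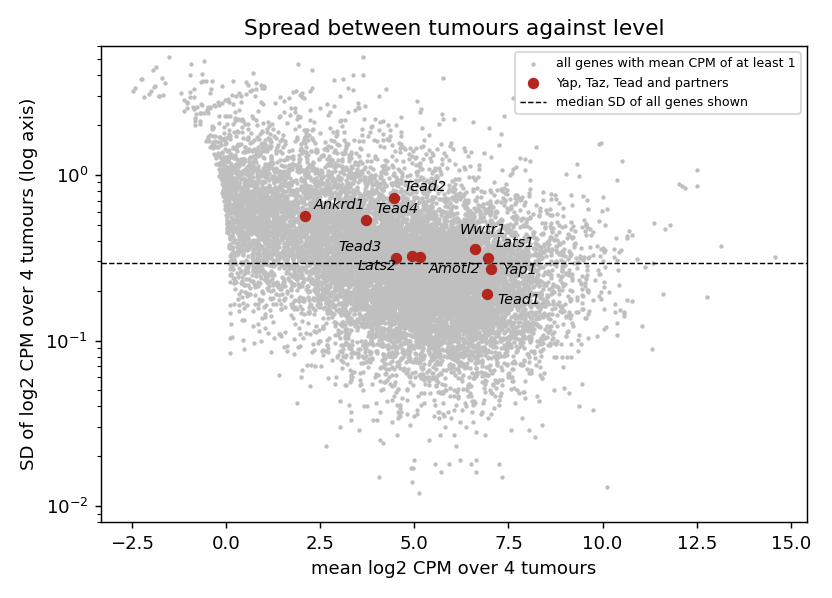
SD of log2 CPM over 4 tumours (log axis) against mean log2 CPM for the 14225 genes tested (grey) and the 10 genes (red), with a dashed line at the median SD of all genes, 0.29. Tead2, Ankrd1 and Tead4 lie above the line by the widest margin, Yap1 and Tead1 below it, and the other 5 close to it.

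No tumour was high or low for the whole set. Tumours 1 to 4 held the highest CPM of 3, 3, 2 and 2 of the 10 genes and the lowest of 4, 3, 3 and 0. Over all genes tested, the highest value lay in tumours 1 to 4 for 31.4%, 20.4%, 30.2% and 18.0% and the lowest for 30.4%, 19.4%, 32.5% and 17.7%. Likeness of pattern was measured as the root mean square difference of log2 CPM after each gene's mean was taken off. Among the 45 pairs of the 10 genes its median was 0.446. The most alike were Yap1 with Tead1, at 0.091, and Lats1 with Amotl2, at 0.093, and the least alike were Tead2 and Tead4, at 1.08. The measure takes in the size of each gene's spread as well as the order of the tumours. Yap1 and Tead1 had the smallest SD of the set and Tead2 the largest. These likenesses are descriptions over 4 tumours, without a test.

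Among 10268 other genes with a mean of at least 10 CPM, the pattern closest to Yap1 was that of Fzd7, a Wnt receptor, at a difference of 0.0278 and with 145, 186, 128 and 182 CPM. Dusp16, a phosphatase of MAP kinases (0.0303), and Selk (0.0309) came next. For Wwtr1 the closest were Lxn (0.0145; 37.3, 22.8, 23.2 and 31.2 CPM), Tuft1 (0.0193) and Hdac5 (0.0302). For Tead2 they were Lsr, a receptor of tricellular junctions (0.0364; 177, 99.5, 53.6 and 94.6 CPM), Cks1b (0.0522) and Fzd2 (0.0616). No test was made of these likenesses.

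Genes of the Hippo kinase module and its regulators act upstream of or beside Lats1 and Lats2. All 17 passed the filter, and 12 of them varied beyond counting noise, near the 76.7% of all genes, with a median SD of log2 CPM of 0.18, beside 0.29 for all genes tested. The highest per kb were Mob1a, a cofactor of the Lats kinases, at 357, 409, 390 and 361 CPM, the scaffold gene Wwc1 at 162, 207, 130 and 205 CPM and the atypical cadherin gene Fat1 at 372, 400, 214 and 418 CPM. Fat1, Wwc1 and Mob1b, with 203, 298, 304 and 214 CPM, had the largest SD of the list, and that of Fat1 (0.448) was above those of Yap1 and Tead1. Fat1 and Wwc1 were lowest in tumour 3, as Yap1 and Tead1 were.

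Of 16 genes for proteins that bind Yap and Taz or control their turnover, 14 passed the filter. Among these, 13 varied beyond counting noise, beside 76.7% of all genes, and the median SD was 0.37. Tumour 3 was lowest for 8 of the 14, and for 32.5% of all genes. Amot, the motin paralogue of Amotl2, was at 52.8, 22.9, 3.09 and 27.0 CPM, a range of 17.1-fold that rests on tumour 3 and was 2.31-fold without it. Like Tead2, it was highest in tumour 1 and lowest in tumour 3, whereas Amotl2 was lowest in tumour 1. Vgll4, which competes with Yap for Tead proteins, was at 49.7, 96.8, 39.0 and 66.7 CPM, and Ajuba, a LIM protein that binds Lats kinases, at 66.7, 31.7, 33.9 and 57.8 CPM. The Tead cofactor genes Vgll1 and Vgll2 were at or under 3 counts in every tumour, while Vgll3, named after its values were seen, had 32, 43, 41 and 23 counts. Among the most abundant per kb were the 14-3-3 gene Ywhaz, whose protein holds phosphorylated Yap in the cytoplasm, and the casein kinase gene Csnk1d, with mean CPM of 797 and 177.

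**Figure D5:**
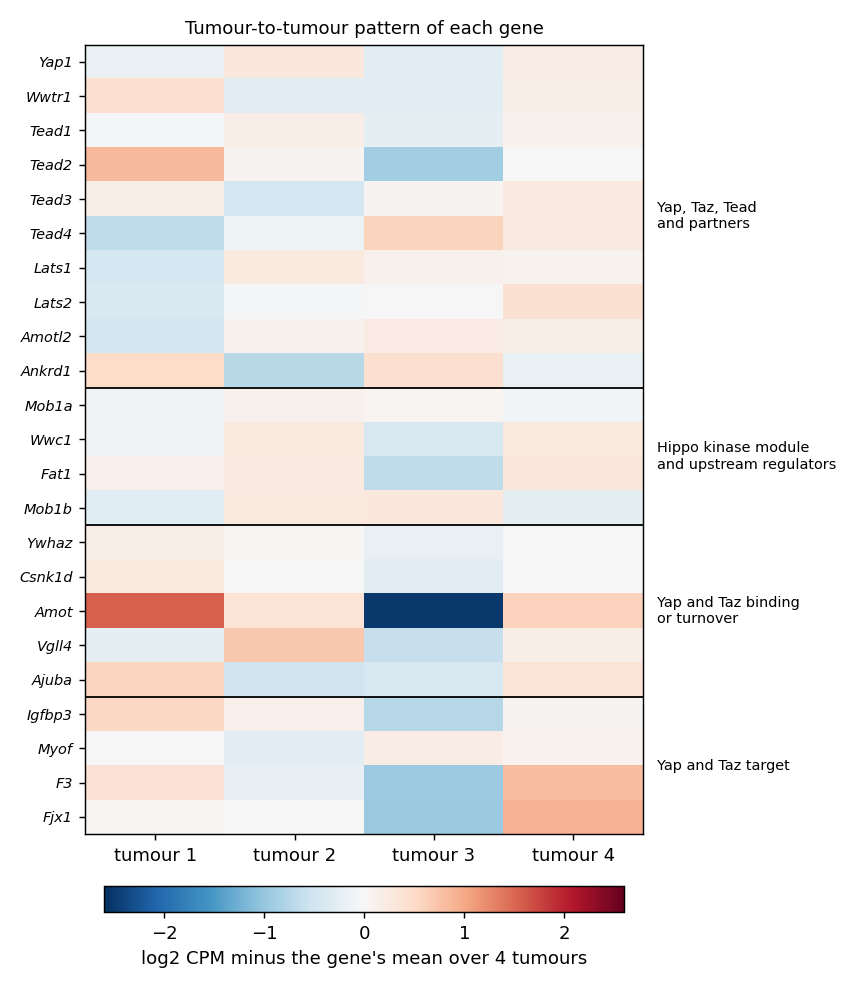
Log2 CPM minus the mean of the gene over 4 tumours (colour) for the 10 genes and the named pathway genes, 1 column per tumour. Tead2 and Amot are high in tumour 1 and low in tumour 3, Tead4 is the reverse, and the Mob1a and Ywhaz rows are the palest.

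Genes listed as targets of Yap and Taz had their highest values in different tumours, as the genes tested in general did. All 18 passed the filter and 15 varied beyond counting noise, again near the 76.7% of all genes, with a median SD of 0.37. Their mean log2 CPM was 5.35, 5.16, 5.14 and 5.35 in tumours 1 to 4. Their highest values fell in tumour 1 for 7 genes, in tumour 2 for 1, in tumour 3 for 6 and in tumour 4 for 4. Over all genes tested, these tumours held the highest value for 31.4%, 20.4%, 30.2% and 18.0%. Igfbp3 was at 373, 280, 152 and 267 CPM, Myof at 455, 378, 525 and 488 CPM and F3, which encodes tissue factor, at 104, 68.8, 41.5 and 140 CPM. Fjx1 was low, at 0.74 to 2.85 CPM.

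Ctgf, Cyr61 and Axl, chosen after their values were seen because they are much used targets, were highest in different tumours. Ctgf was at 78.7, 66.4, 81.8 and 90.6 CPM, a range of 1.36-fold. Cyr61 was at 79.2, 47.6, 51.7 and 69.9 CPM, highest in tumour 1 and lowest in tumour 2, as Ankrd1 was. Axl was at 52.6, 54.5, 113 and 56.6 CPM, with tumour 3 apart from the others. Ankrd1 was at under 6 CPM throughout.

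Markers of cell types also differed between the tumours, and the marker genes named here were chosen after their values were seen. The mean of the 10 alveolar type 1 markers was 7.54, 7.06, 7.94 and 7.92 on the log2 CPM scale in tumours 1 to 4, with 9 of the 10 lowest in tumour 2. Tead3 and Ankrd1 were lowest in the same tumour, and so was Wwtr1, though at 78.9 CPM it lay close to its 79.5 CPM in tumour 3. Yap1, Tead1 and Lats1 were highest in tumour 2. Of the 18 listed targets, 6 were lowest in tumour 2, among them Ctgf and Cyr61, and 7 in tumour 3. Over all genes tested, the lowest value lay in these tumours for 19.4% and 32.5%. Amotl2, Lats1, Lats2 and Tead4 were lowest in tumour 1, in which the mean of the 8 alveolar type 2 markers was also lowest, at 10.77 against 11.70 to 11.89 in the other tumours. Of these 8 markers, 6 were lowest in tumour 1, while Sftpb and Abca3 were lowest in tumour 3, at 6600 and 759 CPM. Tumour 1 was also lowest for 5 of the 6 pan-leukocyte markers, 4 of the 7 endothelial markers and 1 of the 10 type 1 markers. Of all genes tested, 30.4% were lowest there.

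Tead2 was highest in tumour 1, as was the mean of the 4 general epithelial markers, at 9.89 against 9.30, 9.11 and 9.29. The 4 markers did not move together. Epcam, at 600, 470, 218 and 371 CPM, had the order of tumours that Tead2 had, whereas Krt8 and Krt18 were lowest in tumour 2, and Cdh1 was at 842 to 887 CPM throughout and lowest in tumour 1. Tead4 was highest in tumour 3 and lowest in tumour 1, as was the mean of the 6 pan-leukocyte markers, which was 5.02, 5.36, 6.10 and 5.42. The summed CPM of these markers, 526, 832, 812 and 724, had another order, because Lcp1, at 412, 696, 542 and 568 CPM, made up most of it. Single markers of other cells, such as Slc34a2, Pecam1 and Dcn, had the same extremes as Tead4, while others of their lists did not. Among all genes tested, 30.2% were highest in tumour 3 and 30.4% lowest in tumour 1.

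Ankrd1 was higher in tumours 1 and 3, as was the mean of the smooth muscle and pericyte markers, at 4.16, 3.90, 4.54 and 3.56. Their summed CPM was 403, 183, 492 and 174, most of it from Acta2 with 300, 99, 372 and 106 CPM. Myh11 was lowest in tumour 1, at 0.88 CPM, and Cspg4 was at 7.7, 4.65, 3.09 and 2.5 CPM. Fibroblast markers also had higher summed CPM in tumours 1 and 3, at 531, 395, 499 and 301. Their means, at 5.33, 5.37, 5.42 and 5.02, did not have this order. The alveolar type 1 marker Pdpn was higher in tumours 1 and 3 too, at 218, 85.7, 222 and 112 CPM. The heart marker Myl7 was at or under 3 counts in all tumours. Of the 8 heart and skeletal muscle markers, however, 3 passed the filter. They were Myh6 with 4, 7, 27 and 17 counts, Tnnt2 with 20, 35, 5 and 14, and Myl4 with 15, 16, 15 and 8. The part that the makeup of the tumours had in any of these differences was not tested.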

How the data were processed

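Single-end reads of 85 nt from polyadenylated RNA, made from 500 ng of total RNA with a stranded kit, were trimmed, aligned and counted by the authors. The submitters' processing notes name bcl2fastq 2.17, cutadapt 1.4.2, HISAT2, featureCounts 1.4.4, edgeR and the build mm10, while the strand setting and annotation release are not given in the sources used here. The deposited count tables hold raw counts per Ensembl gene, and 156068 of 156068 values of the combined table equalled those of the single tumours. The authors also deposited log2 normalised counts (TMM and voom), used here only as an alternative.

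Counts were scaled with TMM factors (edgeR 4.0.16, limma 3.58.1, R 4.3.3) to CPM. Log2 CPM had 0.5 added to each count and 1 to the effective size. CPM per kb used the union of annotated exons in GENCODE M21 on GRCm38, which listed 37693 of 39017 IDs. The test of spread covered genes averaging at least 1 CPM. With 1 group there was no contrast, so no count model was fitted between groups. Spread was tested against counting noise (chi-square, 3 degrees of freedom, Benjamini-Hochberg adjustment, called at 0.05), and pairs of genes within tumours with exact two-sided permutation by flipping signs over the 4 tumours. Scripts were tested on simulated data. There were no molecular identifiers, and intervals and floors therefore describe counting error alone. Promoter sequences are from RefSeq, and coding sequences from GENCODE, aligned with MAFFT 7.526. Copies were sought with BLAST 2.17.0.

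The pathway genes named are, per list, the 3 highest per kb, the 3 with the largest SD and any at or under 3 counts in all tumours. An allele that all the mice carry and 1 pathway gene that met this rule are not reported here. For Yap1, Wwtr1 and the gene with the largest SD, the 3 genes closest in pattern are named. The 10 genes and all lists were chosen with earlier results of these data known. Alternatives were DESeq2 1.42.0 size factors and dispersions, total counts, other filters, another added count, other lengths, the deposited log2 values and leaving out each tumour.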

Additional observations from a re-analysis of the deposited data

Results flagged for a closer look

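In 4 of 73 values tested, for the 10 genes, the other pathway and marker genes named, the differences, shares and ratios of the 10 genes and the means of the lists, 1 tumour lay far from the other 3, where noise alone would give about 1 in 20. Amotl2 was at 25.3 CPM in tumour 1, below the other tumours by 0.848 of the whole range on the log2 scale. The mean of the alveolar type 2 markers was low in the same tumour, at 10.77 log2 CPM, with a gap of 0.831 of the range. Of the 8 markers, 6 were lowest in tumour 1 and 2 in tumour 3. The mean of the endothelial markers was high in tumour 3, at 5.07 log2 CPM, with a gap of 0.985 of the range. Of the 7 endothelial markers, 5 were highest in tumour 3, 1 in tumour 1 and 1 in tumour 2, and no single marker was apart. Axl was also high in tumour 3, at 113 CPM, with a gap of 0.904 of the range.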

How the results depend on the processing

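Library scaling (DESeq2 size factors or totals), the added count and the deposited log2 values turned the direction of no pair, and the 2 scalings ended no call of variation among the 10 genes. The length taken for a gene and the tumours included did. With the longest transcript, the log2 difference was 0.26 for Yap1 minus Wwtr1, -0.02 for Tead2 minus Tead3, 0.62 for Tead3 minus Tead4 and -0.51 for Lats1 minus Yap1. With no length it was 0.43, -0.04, 0.79 and -0.06 for these pairs, -0.37 for Wwtr1 minus Lats1 and -0.47 for Tead2 minus Lats2. The Tead shares with no length were 66.6%, 12.9%, 12.7% and 7.75% for Tead1 to Tead4, and with the longest transcript Tead3 had 21.9%.

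Leaving out each tumour gave -0.17 (without tumour 1) to 0.83 for Tead2 minus Tead4, -0.39 to 0.05 (without tumour 3) for Tead3 minus Tead4, -0.06 (without tumour 1) to 0.43 for Wwtr1 minus Lats1, -0.10 (without tumour 3) to 0.72 for Amotl2 minus Tead2 and -0.34 (without tumour 1) to 0.38 for Tead2 minus Lats2. Over all alternatives, differences between genes kept their direction in 145 cases and turned in 15. Variation beyond counting noise was called for 8 to 10 of the 10 genes without 1 tumour, and for 8807 to 10244 genes in all. With no filter it was called for 11323 of 21175 genes, 53.5%, and at a mean of at least 10 CPM for 8756 of 10269, 85.3%, with 9 of 9 genes of the set. Ranges without 1 tumour were added after seeing the data.

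No comparison between groups, paired or not, was possible because the labels give 1 group. Depth limits Ankrd1 most, with 22 to 54 counts per tumour. With 4 tumours, no permutation p can be under 0.125.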
